A study of Drosophila melanogaster with 7 samples.

Results

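Chemoreceptors are the membrane proteins with which insects smell and taste. In Drosophila melanogaster they belong to 3 large gene families. Odorant receptors (Or genes) sit in olfactory neurons and work as ion channels together with the co-receptor Orco. Gustatory receptors (Gr genes) detect sugars, bitter compounds, carbon dioxide and heat. Ionotropic receptors (Ir genes), relatives of the glutamate receptors, detect acids, amines, salt, humidity and temperature, and most need a co-receptor such as Ir8a, Ir25a, Ir76b or Ir93a. Most members are known from small sets of sensory neurons, and the larval salivary gland is a secretory epithelium that makes glue proteins.

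The genes described here were taken by symbol: every gene whose name begins with Or, Gr or Ir followed by a number and a letter and that had a probe set of its own on the array, represented by its brightest probe set over all arrays. This gave 165 genes out of 11982 with a probe set of 1 symbol, namely 56 Or, 56 Gr and 53 Ir genes. All 165 matched the Release 6 reference gene table. Of the 186 reference genes that fit the naming rule, 21 had no such probe set, and 7 of these were on probe sets shared by several genes: Gr64b, Gr64c, Gr64d, Gr64e, Ir75d, Or19a and Or19b. A single probe set represented 153 of the 165 genes, and 12 had several.

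RNA of prepupal salivary glands was hybridised to 7 Affymetrix arrays, 1 per sample. The transcription activator GAL4 comes from yeast and has no fly counterpart, and here a heat-shock promoter drove it, with no target transgene named in the labels. Line X1 carried 2 copies of P{hs-GAL4}X1 and had 3 arrays. Line 89, with the insertion P{GAL4-Hsp70.PB}89-2-1, was measured once with 2 copies and once with 1 copy. The w1118 controls had no GAL4 and 2 arrays. The series text calls the X1 arrays and the w1118 arrays biological replicates. Rearing was at 25 °C, the heat shock lasted 30 min at 37 °C, and glands were taken 14 h after puparium formation. The heat shock fell at 9 h in the GAL4 lines and at 9.5 h in w1118. GAL4 therefore cannot be told apart from heat-shock time or strain background in any comparison with w1118.

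Intensities are the authors' normalised dChip values on a linear scale. For tests a floor of 16 was set before taking log2. A gene is called higher or lower, or said to have risen or fallen, where the Benjamini-Hochberg adjusted p of limma was under 0.05 over all 18769 fly probe sets. Folds come from the floored values, and "at least" marks a fold whose dimmer group had no array above 16. Such a group has no spread after flooring. Its SE and p then rest on the spread of the other arrays and of other probe sets. The brightness of a probe set also depends on its probes, so an order of genes by intensity is no order of their RNA. In whole glands, fewer cells of a type and less RNA per cell cannot be told apart.

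Across the libraries, 7 of 10 measured salivary gland markers, among them sage, fkh and the glue gene Sgs3, lay above every background control on both w1118 arrays. X1 replicate 1 was the dimmest array for the chemoreceptor genes and the background controls. The 5' over 3' signal of bacterial control RNAs, a sign of how far labelling reached along an RNA, also moved with the groups. Its median over 4 such RNAs was 0.576 and 0.445 in w1118, 0.323 and 0.367 in line 89, and between 0.112 and 0.149 in X1. For the fly gene Act5C the ratio was 0.624 and 0.616 in w1118, 0.582, 0.523 and 0.496 in X1, and 0.470 and 0.691 in line 89. For eIF-4a it was 0.633 and 0.612 in w1118, 0.557, 0.559 and 0.489 in X1, and 0.369 and 0.575 in line 89. Both fly genes were thus also lower on every X1 array than in w1118, by less. The part of labelling in the changes below was not tested.

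In the w1118 glands the chemoreceptor genes lay at the level of background. Their median intensity was 22.1 and 21.7 on the w1118 arrays, against 62.2 and 61.5 for all genes. The array carries 17 Tag control probe sets for synthetic sequences, and their median was 22.2 and 21.6. On the w1118 arrays 32.1% and 33.9% of the chemoreceptor genes lay under an intensity of 16, compared with 14.4% and 13.1% of all genes. The mean over both arrays was under 50 for 152 of the 165 genes, and it reached 100 for 1 gene, Gr28b. The families were alike in this: the median over the w1118 arrays lay between 18.9 and 23.6 in each of them.

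In X1 the chemoreceptor genes were somewhat dimmer still, most on X1 replicate 1, and so were all genes. The median of all genes was 51.1, 53.1 and 55.4 on the X1 arrays. The chemoreceptor median was 13.0, 19.7 and 18.1 on the X1 arrays, beside Tag medians of 16.1, 21.8 and 22.1. Under 16 lay 58.2%, 36.4% and 43.6% of them on the X1 arrays, compared with 21.4%, 16.6% and 16.9% of all genes, and 33.9% and 38.8% in line 89 with 2 copies and 1 copy. In line 89 it was 24.4 with 2 copies and 18.9 with 1 copy, beside Tag medians of 21.6 and 16.96. On every array the chemoreceptor median thus lay close to that of the synthetic controls and well below that of all genes, whose lowest median was 51.1. The brightest Tag control of an array, which read between 38.7 and 106.7, was exceeded by as few as 4 and as many as 23 of the 165 genes. Over the 7 arrays, 130 genes never exceeded it. Ir10a exceeded it on all 7 arrays, and Or35a, Or7a and Gr43a on 5.

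**Figure D1:**
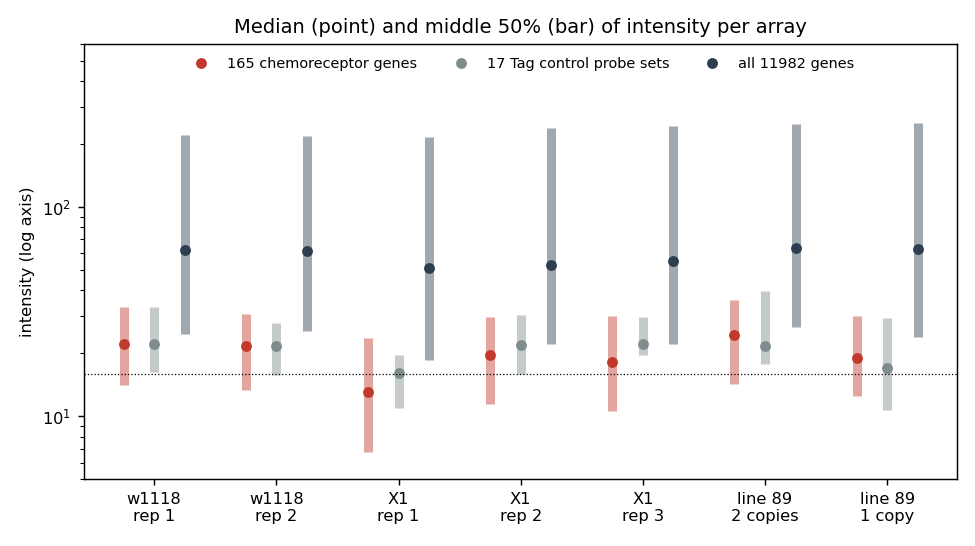
Intensity on a log axis for each of the 7 arrays, as the median (point) and the middle 50% (bar) of 165 chemoreceptor genes, 17 Tag control probe sets and all 11982 genes. The dotted line marks the floor of 16. Chemoreceptor medians, from 13.0 to 24.4, sit beside the Tag medians and below the medians of all genes.

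Dim values still repeated in part between replicate arrays. Over the 165 genes, which are not independent replicates and share the normalisation of each array, log2 values with a floor of 1 correlated at r = 0.758 between both w1118 arrays, beside 0.957 over all genes. Between X1 and w1118 arrays the same correlation was 0.226 to 0.426, beside 0.811 to 0.843 over all genes. The rank correlation (Spearman) between these arrays was 0.320 to 0.519, beside 0.807 to 0.846 over all genes. Probe sets differ in their own background, so this carries no statement on RNA.

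In X1 against w1118, 7 chemoreceptor genes rose and 12 fell, and 146 were not called. The 19 calls are 11.5% of the 165 genes, beside 21.0% of all genes. Dim genes were called less often. Of the 153 chemoreceptor genes with a mean under 50 over all arrays 7.84% were called, beside 11.9% of all such genes. Of the 12 with a mean of at least 50 it was 58.3%, beside 28.3% of all such genes. That mean includes the GAL4 arrays, so a rise itself moves a gene to the brighter group. Among all genes 9.46% were called higher and 11.5% lower. By family, 2 Or, 2 Gr and 3 Ir genes rose, and 6 Or, 4 Gr and 2 Ir genes fell. The median log2 change over the 165 genes was -0.05, beside -0.12 over all genes.

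The counts rest on few arrays and on the scaling. Without X1 replicate 1, 2 or 3 the rises numbered 10, 4 and 3 and the falls 6, 3 and 5. Without w1118 replicate 1 or 2 the rises numbered 3 and 2, and the falls 19 and 19. The split of 7 rises and 12 falls became 11 and 8 after quantile normalisation and 11 and 7 with equal medians. Scaling on the bacterial hybridization controls gave 14 and 3, and that scaling moved the median log2 change of all fly probe sets by 0.30. The median over the chemoreceptor genes was 0 under the first and second of these scalings and 0.09 under the third. Without a test, the X1 arrays all lay above both w1118 arrays for 23 chemoreceptor genes (13.9%) and below them for 39 (23.6%), beside 20.7% and 32.8% of all genes.

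The largest change was that of Ir67b, an ionotropic receptor gene. Its intensities were 0.0354 and 0.150 in w1118 and 381, 503 and 351 in X1, with 0.0693 in line 89 with 2 copies and 161 with 1 copy. The 3 X1 arrays and the array of line 89 with 1 copy were bright, and the other 3 arrays were near 0. In X1 Ir67b rose at least 25.4-fold, by 4.67 ± 0.19 (SE) on the log2 scale with an adjusted p of 0.00196. It ranked first of the 165 genes by mean intensity over all 7 arrays, which includes the bright ones, with a w1118 mean of 0.0928. It was not called in line 89 against w1118 (log2 change 1.67 ± 1.08, SE, adjusted p = 0.564), where both copy numbers form 1 group. Its neighbours in the reference table, CG12362 and Ir67c, were not called in either line. Ir67c read 43.7 and 46.1 in w1118, 21.7, 35.8 and 33.5 in X1, and 36.6 and 41.9 in line 89.

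Or35a, the receptor of a class of coeloconic antennal neurons, rose in both lines. It read 42.0 and 31.6 in w1118, 195, 214 and 214 in X1, and 349 and 187 in line 89 with 2 copies and 1 copy. All 5 GAL4 arrays lay above both controls. The log2 change was 2.51 ± 0.15 (SE, adjusted p = 0.00403) in X1, a 5.70-fold rise, and 2.81 ± 0.33 (SE, adjusted p = 0.0192) in line 89. Those values come from 1 of 3 Or35a probe sets. The others read between 5.77 and 27.0 on all arrays and were not called, with log2 changes of 0.13 and -0.24 in X1. In line 89 the call of Or35a was lost without either w1118 array and without X1 replicate 2 or 3.

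Or7a, an antennal receptor for the leaf odour E2-hexenal, was the other gene that rose in both. It read 19.4 and 6.66 in w1118, 48.3, 73.8 and 74.7 in X1, and 170 and 151 in line 89 with 2 copies and 1 copy. The groups did not overlap, and both line 89 arrays lay above the X1 arrays. The log2 change was 1.87 ± 0.26 (SE, adjusted p = 0.0230) in X1 and 3.18 ± 0.26 (SE, adjusted p = 0.00783) in line 89. Between both lines it was -1.32 ± 0.24 (SE, X1 minus line 89), which did not pass the test (adjusted p = 0.0729). The X1 call was lost without w1118 replicate 1 or 2 and without X1 replicate 2 or 3, whereas the call in line 89 held without each array in turn. CG2278, beside Or7a in the reference table, was not called.

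The other genes that rose in X1 did so by smaller amounts. Ir41a, a receptor that works with Ir76b in the detection of polyamines, read 26.1 and 27.7 in w1118, 66.5, 51.4 and 73.9 in X1, and 96.8 and 44.1 in line 89. It rose by 1.23 ± 0.19 (SE, adjusted p = 0.0272), while its other 2 probe sets were not called, with log2 changes of 0.23 and -0.09. Gr85a read 34.4 and 27.2 in w1118, 70.9, 60.0 and 58.3 in X1, and 96.8 and 33.5 in line 89. For both genes every X1 array was above w1118, and in line 89 the array with 2 copies was the highest of all 7. Gr85a rose by 1.04 ± 0.16 (SE, adjusted p = 0.0275). Its neighbour Glut4EF fell in both lines (log2 change -1.70, adjusted p = 0.00500, in X1 and -1.31, adjusted p = 0.0127, in line 89). Spn85F, on the other side of Gr85a, was not called in either line.

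Gr23a and Ir94f rose in X1 and stayed near the control level in line 89. Gr23a read 28.4 and 31.5 in w1118, 56.8, 46.2 and 54.8 in X1, and 36.1 and 32.9 in line 89. Its log2 change in X1 was 0.81 ± 0.12 (SE, adjusted p = 0.0278), and its other 2 probe sets were not called (0.19 and -0.25). Ir94f read 12.8 and 15.7 in w1118, 35.5, 28.1 and 25.7 in X1, and 12.4 and 14.3 in line 89. It rose by 0.88 (adjusted p = 0.0432), at least 1.84-fold, and on no array did it exceed the brightest Tag control. The difference between lines did not pass the test for either gene (adjusted p = 0.0932 for Gr23a and 0.0686 for Ir94f).

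Of the 7 genes that rose, Ir67b, Or35a and Or7a exceeded the brightest Tag control on every X1 array. The calls of Ir67b and Or35a in X1 held without each array in turn. Each of Ir41a, Gr85a, Gr23a and Ir94f lost its call without w1118 replicate 1 and without w1118 replicate 2. Without X1 replicate 3 all 4 lost it as well. Without X1 replicate 1 the calls of Ir41a and Gr23a were lost, and without X1 replicate 2 those of Gr85a and Ir94f.

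**Figure D2:**
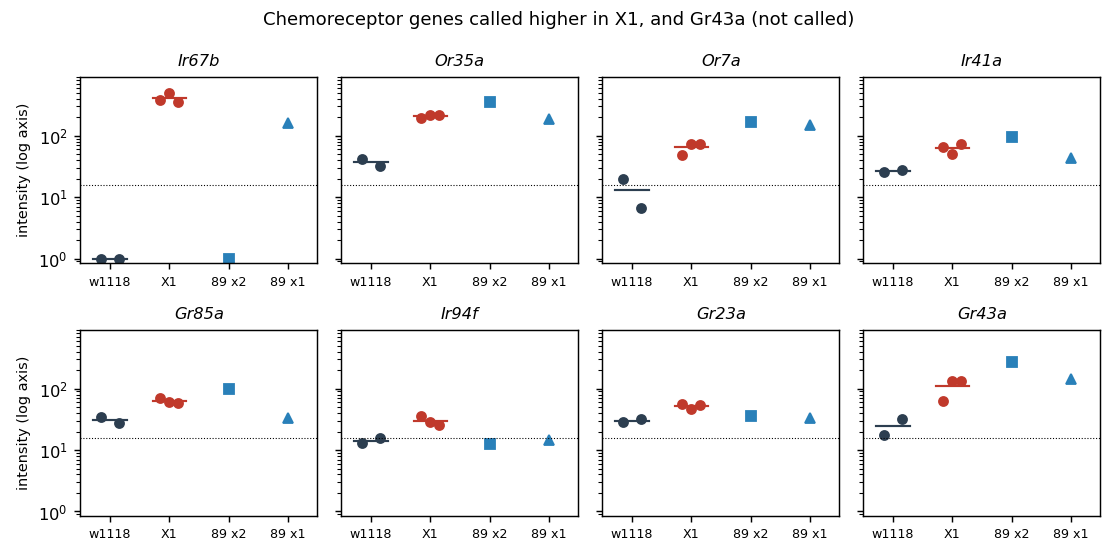
Intensity on a log axis of the 7 genes called higher in X1 and of Gr43a, which was not called. Points are arrays (w1118, X1, line 89 with 2 copies marked x2 and 1 copy marked x1), bars are the means of w1118 and X1, the dotted line is the floor of 16, and values under 1 are drawn at 1. Ir67b is bright on the X1 arrays and with 1 copy of line 89, and Or35a and Or7a are bright on all 5 GAL4 arrays.

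Further genes were bright on some arrays and did not pass the test. Gr43a, the fructose receptor, read 17.8 and 32.1 in w1118, 62.4, 135 and 134 in X1, and 268 and 143 in line 89. All 5 GAL4 arrays lay above both controls, with log2 changes of 2.13 (adjusted p = 0.0744) in X1 and 3.03 (adjusted p = 0.0619) in line 89. Ir93a, a co-receptor for humidity and cool sensing, read 27.3 and 55.6 in w1118, 352, 121 and 90.4 in X1, and 27.8 and 54.9 in line 89. The X1 arrays were above the other 4, with X1 replicate 1 far above the rest (log2 change 2.01 ± 0.77, SE, adjusted p = 0.178).

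The other Ir co-receptors were not called in any comparison. Ir76b read 88.1 and 66.2 in w1118, 82.2, 94.4 and 69.0 in X1, and 89.5 and 70.9 in line 89, with the groups overlapping. Ir25a read 59.0 and 56.7 in w1118, 37.9, 48.7 and 42.5 in X1, and 48.4 and 27.8 in line 89 (log2 change in X1 -0.43, adjusted p = 0.109). Ir8a, the co-receptor of acid sensing, read 80.7 and 85.1 in w1118, 11.02, 64.8 and 25.4 in X1, and 83.5 and 24.0 in line 89. X1 replicate 1 and replicate 3 and line 89 with 1 copy were low, and the change in X1 was not called (-1.48 ± 0.69, SE, adjusted p = 0.247). Ir10a, the gene above every Tag control on all arrays, read 104 and 81.2 in w1118, 61.4, 99.8 and 74.5 in X1, and 173 and 88.9 in line 89. It was not called in X1 (-0.25, adjusted p = 0.581), and its second probe set read 5.22 to 14.5.

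Of the genes that fell in X1, Gr8a changed most. Gr8a, which serves the taste of the plant toxin canavanine, read 81.8 and 81.4 in w1118, 6.74, 25.5 and 12.6 in X1, and 33.3 and 40.1 in line 89. Every GAL4 array was below both controls. In X1 it fell by 2.13 on the log2 scale (SE 0.26, adjusted p = 0.0179). Line 89 was not called (-1.16, adjusted p = 0.102). In the reference table Gr8a overlaps CG12121, which rose in X1: 423 and 412 in w1118, 1751, 2447 and 1954 in X1, and 965 and 406 in line 89 (log2 change 2.28 ± 0.17, SE, adjusted p = 0.00601). The neighbours of Gr8a, CG15370 and Ir8a, were not called in either line.

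Or67b read 54.3 and 56.2 in w1118, 2.26, 13.5 and 24.5 in X1, and 15.6 and 14.8 in line 89. It fell in both lines, by 1.58 (adjusted p = 0.0276) in X1 and by 1.79 (adjusted p = 0.0262) in line 89, there at least 3.45-fold. CG3335 and Cyp40, which overlap Or67b in the reference table, and its neighbour LanB2 were not called in either line. The other neighbour of Or67b, fry, a gene for the branching of sensory dendrites, rose in both lines. It read 233 and 436 in w1118, 5669, 5529 and 4438 in X1, and 4912 and 5646 in line 89 (log2 change 4.02, adjusted p = 0.00751, in X1).

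Gr28b, a warmth sensor, and Or43a, a receptor for benzaldehyde, were the other falling genes above every Tag control on both w1118 arrays. Gr28b read 118 and 90.6 in w1118, 51.1, 51.1 and 50.9 in X1, and 87.0 and 65.3 in line 89. Or43a read 67.4 and 81.4 in w1118, 36.6, 35.7 and 45.2 in X1, and 87.1 and 69.0 in line 89. Both were low on the X1 arrays and above those in line 89. Gr28b fell by 1.02 (SE 0.13, adjusted p = 0.0205) and Or43a by 0.93 (SE 0.16, adjusted p = 0.0355) in X1, and neither was called in line 89. Without any of the 3 X1 arrays both calls were lost, and Or43a also lost its call without either w1118 array. When arrays were scaled on the hybridization controls, each of the 12 falls in X1 lost its call except those of Or67b, Gr21a and Or33b.

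Gr21a, which forms the carbon dioxide receptor together with Gr63a, read 37.1 and 30.5 in w1118, 11.6, 9.75 and 12.8 in X1, and 32.99 and 18.5 in line 89. In X1 it was at least 2.10-fold lower (adjusted p = 0.0101). Its partner Gr63a read 14.7 and 23.0 in w1118 and between 2.05 and 11.6 on the GAL4 arrays, and was not called (adjusted p = 0.406 in X1). Or23a read 46.1 and 43.1 in w1118, 21.1, 18.0 and 18.1 in X1, and 30.3 and 50.5 in line 89. It fell by 1.23 in X1 (SE 0.10, adjusted p = 0.00712), and that call held without each array in turn but was lost with hybridization control scaling, with a floor of 64 and with all GAL4 arrays as 1 group.

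The remaining falling genes ended near or under the floor. Or33b went from 36.1 and 29.4 to 10.7, 2.11 and 4.89 in X1, at least 2.04-fold lower (adjusted p = 0.0124). Or22b, which shares its antennal neurons with Or22a, went from 22.9 and 29.2 to 6.59, 11.99 and 9.22, at least 1.62-fold lower (adjusted p = 0.0396). Ir67a went from 21.5 and 19.8 to 7.57, 8.40 and 3.96, at least 1.29-fold lower (adjusted p = 0.0269). For these genes the X1 arrays all lay below both controls and under 16, so their folds are bounds set by the floor. The floor also removed the spread among their X1 arrays from the test. With a floor of 1, Or33b and Ir67a lost their calls and Or22b kept its call. Ir67a's neighbour CG42673 also fell in X1, by 3.76 (adjusted p = 0.00577). Or67a, the other neighbour of Ir67a, was not called.

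Or24a read 33.3 and 31.8 in w1118, 2.85, 3.46 and 20.3 in X1, and 18.3 and 4.11 in line 89. Gr98b read 23.9 and 25.3 in w1118, 4.54, 6.62 and 17.4 in X1, and 13.4 and 13.0 in line 89. Both fell in both lines, and all 5 GAL4 arrays lay below both controls. Or24a fell by 0.91 (adjusted p = 0.0277) in X1 and by 0.93 (adjusted p = 0.0473) in line 89, and Gr98b by 0.58 (adjusted p = 0.0144) and at least 0.62 (adjusted p = 0.0267). Ir7d read 37.4 and 28.2 in w1118, 15.6, 19.0 and 19.0 in X1, and 31.1 and 35.7 in line 89. It fell by 0.86 in X1 (adjusted p = 0.0488), a call that was lost without each array in turn. Without X1 replicate 2, Or67b, Gr21a, Or33b, Or24a, Or22b, Gr98b and Ir67a were no longer called in X1. Without X1 replicate 1 this held for Or67b, Or24a, Or22b and Ir67a, and without X1 replicate 3 for Gr8a, Gr21a, Or33b, Or22b and Ir67a. Without either w1118 array it held for Gr8a, Or67b, Or24a and Gr98b. In line 89 the calls of Or67b, Or24a and Gr98b were lost without the array of 2 copies, and each was also lost without either w1118 array and without X1 replicate 2. Of the 12 falling genes, 7 exceeded the brightest Tag control on no array: Gr21a, Gr98b, Ir67a, Ir7d, Or22b, Or24a and Or33b.

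The Tag controls give the change that sequences absent from flies showed on the same arrays. Their median log2 change in X1 was -0.10, between -1.14 and 0.75. On values without a floor, the X1 arrays all lay below both w1118 arrays for 4 of 17. None lay above. The falls of Gr21a, Or33b, Gr28b, Or43a, Or24a, Ir7d, Or22b, Gr98b and Ir67a were within that range, and those of Gr8a, Or67b and Or23a were beyond it. Of the rises, that of every gene was beyond the highest Tag value of 0.75. Without a floor, both line 89 arrays lay above w1118 for 2 of 17 Tag controls and below for 4. The Tag changes in line 89 lay between -0.87 and 0.91. The fall of Gr98b there was within that range, and the changes of Or35a, Or7a, Or67b and Or24a were beyond it. In both comparisons the called genes were selected by their change, whereas the 17 Tag controls were not. Lying beyond the Tag range is therefore no test of a gene. Lying within it is none either, because these changes come from floored values. The X1 arrays of Gr21a, Or33b, Or22b and Ir67a all lay under 16, as did the line 89 arrays of Gr98b. The floor set the size of those falls.

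**Figure D3:**
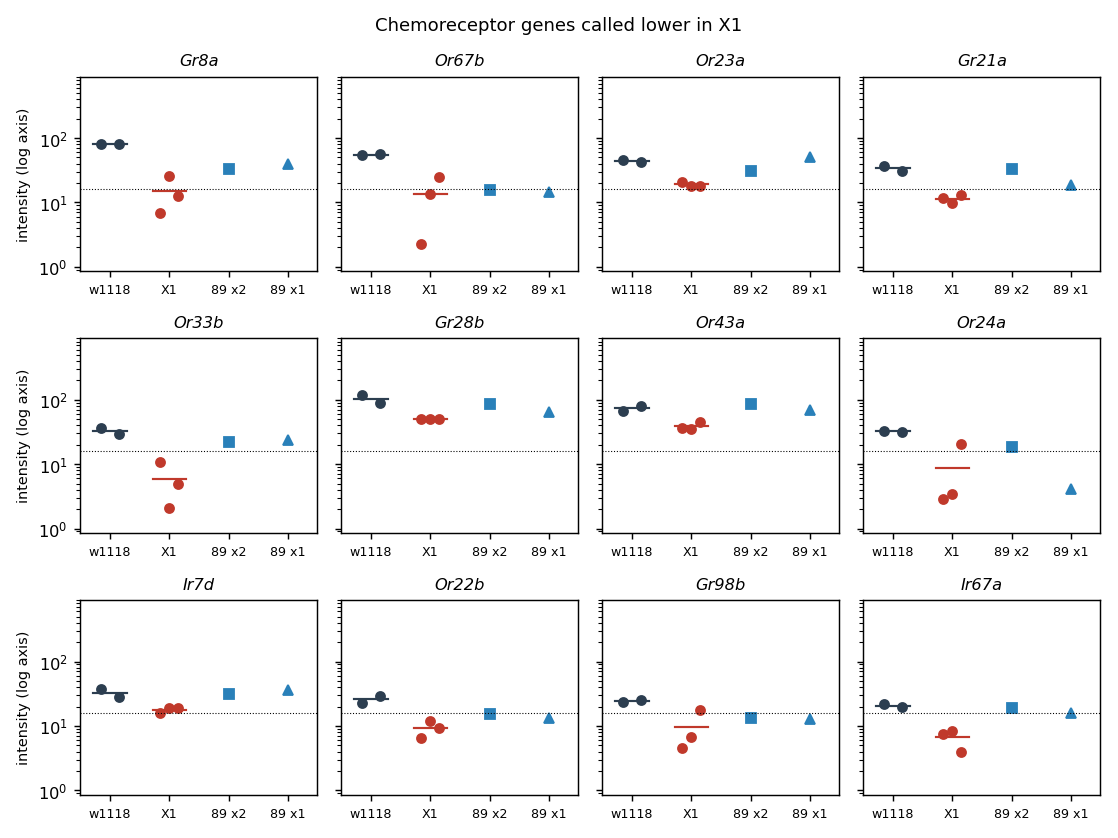
Intensity on a log axis of the 12 genes called lower in X1. Points are arrays, bars are the means of w1118 and X1, and the dotted line is the floor of 16. Gr28b stays near 51 on the X1 arrays, while the X1 values of Or33b, Or22b, Ir67a and Gr21a all lie under the floor.

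**Figure D4:**
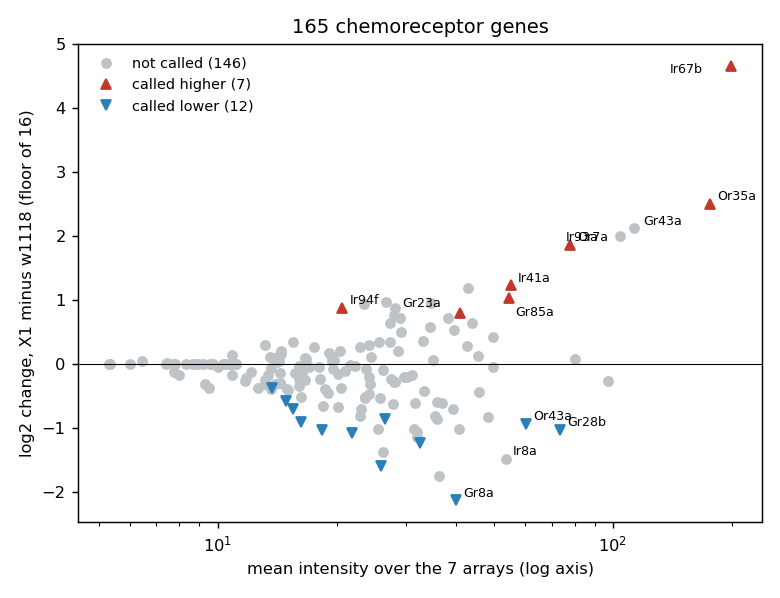
Log2 change in X1 against w1118 (values floored at 16) against the mean intensity over the 7 arrays on a log axis, 1 point per chemoreceptor gene. The mean includes the GAL4 arrays, so a gene that rose lies further right through its own change. Ir67b is highest at 4.67.

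In line 89 against w1118, 2 of the 165 genes rose (Or35a and Or7a) and 3 fell (Or67b, Or24a and Gr98b). Among all genes 5.11% were called, 3.54% higher and 1.57% lower. Of all genes with a mean under 50, 2.59% were called. The X1 values of the chemoreceptor genes called here are given above, and both comparisons use the same w1118 arrays. On floored values, where arrays under 16 tie, the line 89 arrays both lay above w1118 for 21 genes (12.7%). They lay below it for 26 (15.8%), beside 22.0% and 22.0% of all genes. With the array of 2 copies alone standing for line 89, 13 genes were called higher and 1 lower. With the array of 1 copy alone 3 were called higher and 0 lower. Without X1 replicate 2 or 3 there was 1 rise and 1 fall, without X1 replicate 1 there were 2 rises and 5 falls, and without w1118 replicate 1 or 2 there were 1 and 2 rises and 4 and 6 falls.

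Between X1 and line 89 limma called 0 of the 165 genes in either direction, whereas 2.36% of all genes were called, 0.985% higher and 1.38% lower in X1. At an unadjusted p under 0.05, 8 chemoreceptor genes were higher and 20 lower in X1. With line 89 represented by the array of 2 copies alone, 1 was called higher and 9 lower. With the array of 1 copy alone, or without either w1118 array, 1 gene was called lower. A difference between lines for genes called in one of them is therefore shown for none of the 165 genes with all arrays in the fit.

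Within line 89, the animals with 2 copies and with 1 copy had 1 array each, so their values are side by side with no test. With 2 copies 18 chemoreceptor genes were at least 2-fold higher and 5 at least 2-fold lower on floored values, beside 11.1% and 8.50% of all genes. Or67a read 67.9 with 2 copies and 12.5 with 1, Or85e 81.2 and 20.6, and Ir8a 83.5 and 24.0. Gr5a, a receptor for the sugar trehalose, read 10.4 and 58.5. Ir67b, at 0.0693 and 161, was at least 10.1-fold lower with 2 copies. Of all genes, 19 were at least 10-fold lower with 2 copies and 19 at least 10-fold higher. Ir67b was the 1 gene of 11982 that read under 16 on both w1118 arrays and with 2 copies of line 89, and at least 100 on every X1 array and with 1 copy. That rule follows the values of Ir67b itself, so it describes the gene and is no test.

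**Figure D5:**
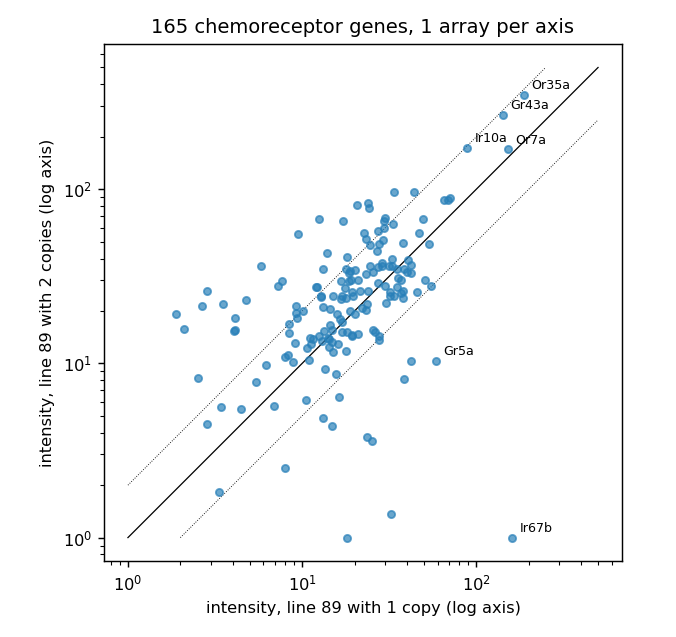
Intensity of the 165 chemoreceptor genes in line 89 with 1 copy (x, log axis) and 2 copies (y, log axis) of the GAL4 insertion, 1 array each, with values under 1 drawn at 1. The solid line marks equal values and the dotted lines a 2-fold difference. Ir67b lies far below the line, at 0.0693 against 161, while Or35a, Gr43a and Or7a are bright on both arrays.

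The named receptors best known from taste neurons were mostly dim, apart from Gr43a and Gr8a above and 1 array for Gr5a. Gr8a read 81.8 and 81.4 in w1118. The bitter receptors Gr66a and Gr33a read 14.3 and 21.6, and 20.4 and 22.5, in w1118. Gr66a read 6.09, 6.46 and 5.21 in X1, and Gr33a 6.43, 23.0 and 13.3. The sugar receptors Gr64a and Gr64f read between 6.39 and 24.5 on all 7 arrays. Gr5a read 49.8 and 42.7 in w1118, 29.01, 19.8 and 13.8 in X1, and 10.4 and 58.5 in line 89 with 2 copies and 1 copy, the last above the brightest Tag control of that array (43.4). Gr66a, Gr33a, Gr64a, Gr64f and Gr5a were not called in any comparison. For Gr5a the adjusted p in X1 was 0.0887 with a log2 change of -1.14.

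Other genes of chemosensation were taken from a list of 37 accessory and transduction genes, of which 29 were measured. In X1, 3 rose and 2 fell, with a median log2 change of 0, beside 9.46% of all genes called higher and 11.5% lower. Those that rose were wtrw, pyx and ppk28. The TRPA channel gene wtrw read 34.1 and 25.8 in w1118, 463, 841 and 697 in X1, and 368 and 68.3 in line 89 (log2 change in X1 4.45 ± 0.33, SE, adjusted p = 0.00583). The TRPA channel gene pyx read 27.3 and 24.1 in w1118, 217, 356 and 422 in X1, and 467 and 371 in line 89. It rose in both lines, by 3.64 (adjusted p = 0.01002) and 4.02 (adjusted p = 0.00913). For both channels every GAL4 array was above w1118.

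The water taste channel gene ppk28 read 15.1 and 27.95 in w1118, 173, 116 and 127 in X1, and 39.6 and 14.5 in line 89, and rose in X1 (2.69, adjusted p = 0.0186). In X1 ppk29, which serves pheromone taste, fell by 1.35 (adjusted p = 0.0361) and CheB98a by at least 0.60 (adjusted p = 0.00661). CheB98a read 23.5 and 24.9 in w1118 and under 16 on every X1 array, and its X1 call was lost with a floor of 1. In line 89, pyx and CheB93a rose and CheB98a fell, beside 3.54% of all genes called higher and 1.57% lower. Orco, the co-receptor on which odorant receptors depend, read 34.2 and 25.7 in w1118, 24.8, 7.39 and 23.4 in X1, and 31.6 and 19.5 in line 89. It was not called in any comparison (adjusted p = 0.311 in X1), and it lay in the range of the Tag controls while Or35a and Or7a were high.

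Of 47 odorant binding protein genes, 2 rose and 5 fell in X1, beside 9.46% and 11.5% of all genes. The median log2 change over the 47 genes was -0.05. Obp56d read 137 and 87.6 in w1118, 443, 420 and 497 in X1, and 831 and 74.98 in line 89, and rose by 2.05 (adjusted p = 0.0150). Obp28a rose by 0.52 (adjusted p = 0.0306). The falls with the lowest adjusted p were those of Obp56h (-0.70), Obp69a (-0.74) and Obp58c (-1.28). Each of these genes had every X1 array under 16, so the floor set the size of its fall. In line 89, 0 rose and 1 fell (Obp58c), beside 3.54% and 1.57% of all genes. Of 15 genes listed as glutamate receptors other than Ir genes, none rose and 1 fell in X1, and that one, Eato, encodes an ABC transporter and is no receptor.

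Markers of other cells were read beside these changes. Among all genes, 9.46% rose and 11.5% fell in X1, and 3.54% rose and 1.57% fell in line 89. Of 13 neuron markers 0 rose and 1 fell in X1, ChAT, the acetylcholine synthesis gene. It fell by at least 2.30 (adjusted p = 0.00205) in X1, where every array was under 16, and in line 89 by 2.20. The summed intensity of the neuron markers was 601 and 656 in w1118, 582 to 1249 in X1, and 422 and 784 in line 89. X1 replicate 1 was highest, through fne (633) and Appl (271). The pan-neuronal gene elav read 168 and 77.6 in w1118, 37.7 to 75.9 in X1, and 30.2 and 66.9 in line 89, while nSyb and para stayed under 35 on all arrays. Of 5 glia markers 3 rose in X1 (nrv2 by 3.62, moody by 2.54 and loco by 1.07) and 2 in line 89 (nrv2 and moody). Their summed intensity went from 7707 and 8355 in w1118 to between 22618 and 25940 in X1. The brightest of them, moody, read 1653 and 2056 in w1118 and 10370, 11516 and 10406 in X1. The glia markers repo and Gs2 were not called in either line (adjusted p = 0.239 and 0.869 in X1).

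For the gland itself, Sgs3 rose in X1 (1.15) and Sgs7 (-1.12) and sage (-1.13) fell, out of 10 markers. The counts here stand beside 9.46% of all genes that rose in X1 and 11.5% that fell. Of 7 fat body markers 0 rose and 2 fell (Fbp2 and Yp1), with sums of 13669 and 14730 in w1118 and 7815 to 10014 in X1. Of 7 muscle markers 1 rose (sls) and 2 fell (Act87E and Mlc1). Of 7 hemocyte markers 1 fell (NimC1), of 6 midgut markers 1 rose (thetaTry) and 2 fell (LysP and alphaTry), and of 2 tracheal markers 1 rose (Cpr49Ac). The part of other cells in the chemoreceptor values was not tested.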

How the data were processed

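Salivary gland RNA was measured on 7 arrays. The authors deposited dChip intensity values on a linear scale, normalised to 1 baseline array with a median intensity of 145, per the labels and the series text; the dChip model and version are not given in the sources used here. Symbols came from the platform annotation, which gave 1 symbol for 13647 of 18769 fly probe sets, several for 402 and none for 4720; 183 control probe sets were left out of the tests. The reference table served for names and neighbours. Intensities were floored at 16 and converted to log2. X1 and w1118 were compared on the 3 and 2 arrays in limma 3.58.1 (R 4.3.3; lmFit, eBayes, two-sided); line 89 contrasts came from 1 fit of 7 arrays in 3 groups. On simulated data for X1 against w1118, limma recovered 138 of 200 changes of 3 on the log2 scale, with 6 false calls. Those changes were placed only in probe sets brighter than most chemoreceptor genes were in w1118. The recovery of changes in dimmer genes was therefore not tried. Named genes were all called members, the 10 brightest, well-known receptors, up to 3 called genes per list and direction, and neighbours of called members; further genes in the copy number comparison were chosen after their values were seen. Members and lists were chosen with earlier results of these data known. The number of arrays limits precision, and array data have no read depth. Alternatives covered floors, scaling, a filter on dim probe sets, thresholds, grouping, the probe set chosen and each array left out.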

Additional observations from a re-analysis of the deposited data

Results flagged for a closer look

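A probe set shared by Gr64d and Gr64e, sugar receptor genes that have no probe set of their own and so are not among the 165, read higher on every GAL4 array than on both w1118 arrays. It read 12.01 and 12.5 in w1118, 16.7, 19.6 and 20.0 in X1, and 29.6 and 18.6 in line 89, with a mean of 20.9 over the GAL4 arrays. It was not called in X1 (adjusted p = 0.245). These values lie within the range of the Tag controls. For comparison, 20.7% of all genes were, on floored values, higher on every X1 array than on both w1118 arrays. The other shared probe sets did not show this. Of 2 probe sets shared by Gr64b and Gr64c, 1 fell in X1 (log2 change -0.74, adjusted p = 0.00310), from 26.3 and 27.0 in w1118 to 7.96, 14.5 and 6.30, and the other did not pass the test (-0.60, adjusted p = 0.113). The X1 values of the called probe set all lay under 16, so the floor set the size of its fall. The probe set of Or19a and Or19b (-1.39, adjusted p = 0.0756) and that of Ir75d and COX6AL2 (-0.78, adjusted p = 0.405) were not called in X1, and none of the 5 was called in line 89.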

How the results depend on the processing

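Main values in X1 against w1118 are 7 rises and 12 falls, in line 89 against w1118 2 and 3, and between the lines 0 and 0. With all GAL4 arrays as 1 group, 1 chemoreceptor gene was higher and 4 lower than in w1118. Equal median scaling gave 11 rises and 7 falls in X1, 1 fall in line 89 and 1 gene higher in X1 than in line 89. Hybridization control scaling gave 14 and 3 in X1, 9 and 1 in line 89, and 2 genes lower in X1 than in line 89. Quantile normalisation gave 11 rises in X1 and 1 fall in line 89. A floor of 64 gave 2 and 2 in X1, 1 and 1 in line 89 and 1 gene lower in X1 than in line 89. A floor of 1 gave 6 falls in X1, and 4 rises and 0 falls in line 89. A mean of at least 50, which tests fewer genes, gave 2 falls in X1, 0 in line 89 and 1 gene lower in X1 than in line 89. An adjusted p under 0.01 gave 2 and 1 in X1 and 1 and 0 in line 89. The dimmest probe set of each gene gave 4 rises in X1, 1 in line 89 and 1 gene lower in X1 than in line 89. It also turned the X1 change of Or35a to -0.24, of Ir41a to -0.090 and of Gr23a to -0.25. Apart from the settings whose construction shows it, the cause was not tested.

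Same-numbered X1 and w1118 arrays did not deviate together (r = -0.05 and -0.01 over all fly probe sets). The 2 w1118 arrays deviate as mirror images of each other, so this check cannot settle whether the numbers pair arrays. The fit with the replicate number as a block left 0 rises and 0 falls in X1. Leaving out 1 array in turn gave 2 to 10 rises and 3 to 19 falls in X1, 1 to 13 and 0 to 6 in line 89, and 0 to 1 and 0 to 9 between the lines; a lone array was assumed to vary like the other groups. The median chemoreceptor intensity in w1118, 21.9, was 20.1 after quantile normalisation, 20.5 with equal medians, 16.3 with hybridization scaling, 19.9 with the dimmest probe sets, and 21.7 to 22.1 without 1 array. The share under 16, 33.03%, was 38.5%, 36.1%, 49.4%, 37.3% and 32.1% to 33.9% in the same order. Most chemoreceptor genes lie at background, where the floor sets the size of a change.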
